A study of Homo sapiens with 12 samples.

Results

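AXL, MERTK, TYRO3, GAS6, PROS1 and MET were followed in RNA-seq libraries of MDA-MB-231 and Hs-578T, both established triple negative breast cancer cell lines with a mesenchymal shape. The group was set by gene symbol, with earlier results of these data known. It holds 6 of the 32152 genes in the deposited expression table, and each of the 6 passed the filter on low values. In each line 3 groups of 2 libraries were sequenced, giving 12 libraries. Parental control cells were compared with ERK5-ko cells, in which CRISPR/Cas9 was aimed at MAPK7, the gene of the kinase ERK5, and with cells labelled MEK5DD, named for an activated form of MEK5, the kinase directly upstream of ERK5. The labels name no added drug or ligand, and RNA was taken from subconfluent cultures. The MDA-MB-231-ERK5-ko line came from a single surviving clone, while the labels do not say which Hs-578T clone was sequenced, and how the MEK5DD cells were made is not given in the sources used here. The controls were parental cells labelled passage 29 and 30 (MDA-MB-231) or 83 and 84 (Hs-578T). The engineered cells were labelled passage 7 to 11. The paper made its ERK5-ko lines from cells at passages well above 11, so the ERK5-ko numbers do not count from the same start as the parental ones. Passage and genotype cannot be told apart. The 2 libraries of a group were 1 passage apart and nothing says that they came from separate derivations, so p-values measure only the spread between these samples, which may be technical.

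AXL, MERTK and TYRO3 are the TAM family of receptor tyrosine kinases. Their ligands GAS6 and PROS1 (protein S) are vitamin K-dependent secreted proteins that bridge the receptors to phosphatidylserine on membranes. MET is the receptor of hepatocyte growth factor (HGF), is a close relative of RON, and can signal alongside AXL through shared adaptors. AXL is known for its high expression in mesenchymal breast cancer lines, MERTK for its role in macrophages.

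Library depth recovered from the table ranged from 20248162 to 27791195 reads, and levels are given as RPKM, reads scaled by transcript length and by library depth. Knockout libraries, as labelled, did not have less MAPK7 RNA. It was at 16.3 and 17.8 RPKM in MDA-MB-231-ERK5-ko against 13.3 and 14.3 in parental cells. In Hs-578T-ERK5-ko it was at 17.8 and 18.1 against 14.0 and 16.0. RNA here therefore does not check that label. The paper states that the knockout was checked in its clones by qRT-PCR as well as Western blot. In its blots ERK5 protein was strongly reduced in both ERK5-ko lines. MAP2K5, the gene of MEK5, reached 188 and 184 RPKM in MDA-MB-231-MEK5DD against 12.9 and 13.6 in parental cells (log2 fold change 3.77, adjusted p = 3.31e-10). In Hs-578T-MEK5DD it was only at 21.3 and 23.8 against 14.6 and 16.9 RPKM (0.50, adjusted p = 0.00492), a call lost when only the Hs-578T libraries were fitted (adjusted p = 0.0806). The 2 MEK5DD lines therefore carried very different amounts of MAP2K5 RNA.

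The sequence just upstream of 3 of the genes is shown because AXL and MET moved together in 1 engineered line while GAS6 moved the other way. Each is the 250 bases before the RefSeq start (GRCh38.p14), printed 5′ to 3′ on the strand of the gene, and capitals mark the GC box letters GGGCGG, known as a site of SP1-type factors, or their reverse complement CCGCCC. AXL lies at chr19:41218973-41219222 on the plus strand, GAS6 at chr13:113864077-113864326 on the minus strand and MET at chr7:116671946-116672195 on the plus strand.
AXL: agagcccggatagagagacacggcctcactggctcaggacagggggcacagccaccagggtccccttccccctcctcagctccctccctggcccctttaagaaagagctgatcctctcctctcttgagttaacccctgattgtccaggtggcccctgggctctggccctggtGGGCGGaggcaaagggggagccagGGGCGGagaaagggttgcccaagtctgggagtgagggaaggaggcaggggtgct
GAS6: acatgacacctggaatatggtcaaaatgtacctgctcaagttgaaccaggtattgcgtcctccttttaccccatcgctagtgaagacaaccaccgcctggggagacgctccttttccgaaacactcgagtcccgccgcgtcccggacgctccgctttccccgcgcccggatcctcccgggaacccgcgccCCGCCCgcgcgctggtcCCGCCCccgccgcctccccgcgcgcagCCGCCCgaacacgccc
MET: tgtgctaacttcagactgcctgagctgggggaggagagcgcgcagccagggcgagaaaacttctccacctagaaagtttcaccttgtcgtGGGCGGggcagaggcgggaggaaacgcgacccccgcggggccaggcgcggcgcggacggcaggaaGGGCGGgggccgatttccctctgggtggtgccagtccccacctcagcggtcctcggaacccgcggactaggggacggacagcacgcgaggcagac
AXL held 2 such matches, GAS6 3 and MET 2, and the windows of MERTK, TYRO3 and PROS1 also held at least 2 each. The letters occur in 42.6% of 35116 RefSeq promoter windows of the same length. The RefSeq start used for TYRO3 lies 1537 bases inside the deposited gene interval, so its window is within the gene, while the RefSeq starts of the other genes lie within 194 bases of the deposited ones. The AP-1 letters TGANTCA were found in the TYRO3 window alone of the 6 (6.57% of all windows), and the MEF2 consensus, of a factor family that ERK5 is known to phosphorylate, in none of the 6 windows (2.36% of all windows). Both strands were searched, the motifs do not overlap in these windows, and a match is no evidence of binding.

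How many of the 6 genes changed depended on the line. A gene passed when limma's test on log2(RPKM + 0.5) gave a Benjamini-Hochberg adjusted p under 0.05 over 13737 protein-coding genes, and every fold change below is on that scale, which understates changes of low genes such as MERTK. In MDA-MB-231-ERK5-ko against parental 2 of 6 passed, 1 higher and 1 lower, where 6.91% of all tested genes passed higher and 10.4% lower. In Hs-578T-ERK5-ko 4 of 6 passed, 2 in each direction, against a background of 19.7% higher and 19.7% lower. In MDA-MB-231-MEK5DD 5 of 6 passed, 1 higher and 4 lower, against 17.5% and 23.8%. In Hs-578T-MEK5DD 2 of 6 passed, 1 in each direction, against 6.44% and 17%. With backgrounds of this size a passing gene is not unusual in itself, and sizes are more informative than counts. Median-ratio scaling moved the share of passing genes that were higher from 39.9% to 52.8% in MDA-MB-231-ERK5-ko and from 27.5% to 44.2% in Hs-578T-MEK5DD, and quantile normalization moved it from 42.5% to 52.9% in MDA-MB-231-MEK5DD, while no passing member changed direction in these 3 comparisons. The exact permutation test of 2 against 2 libraries cannot go below p = 0.333 and was not used.

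**Figure D1:**
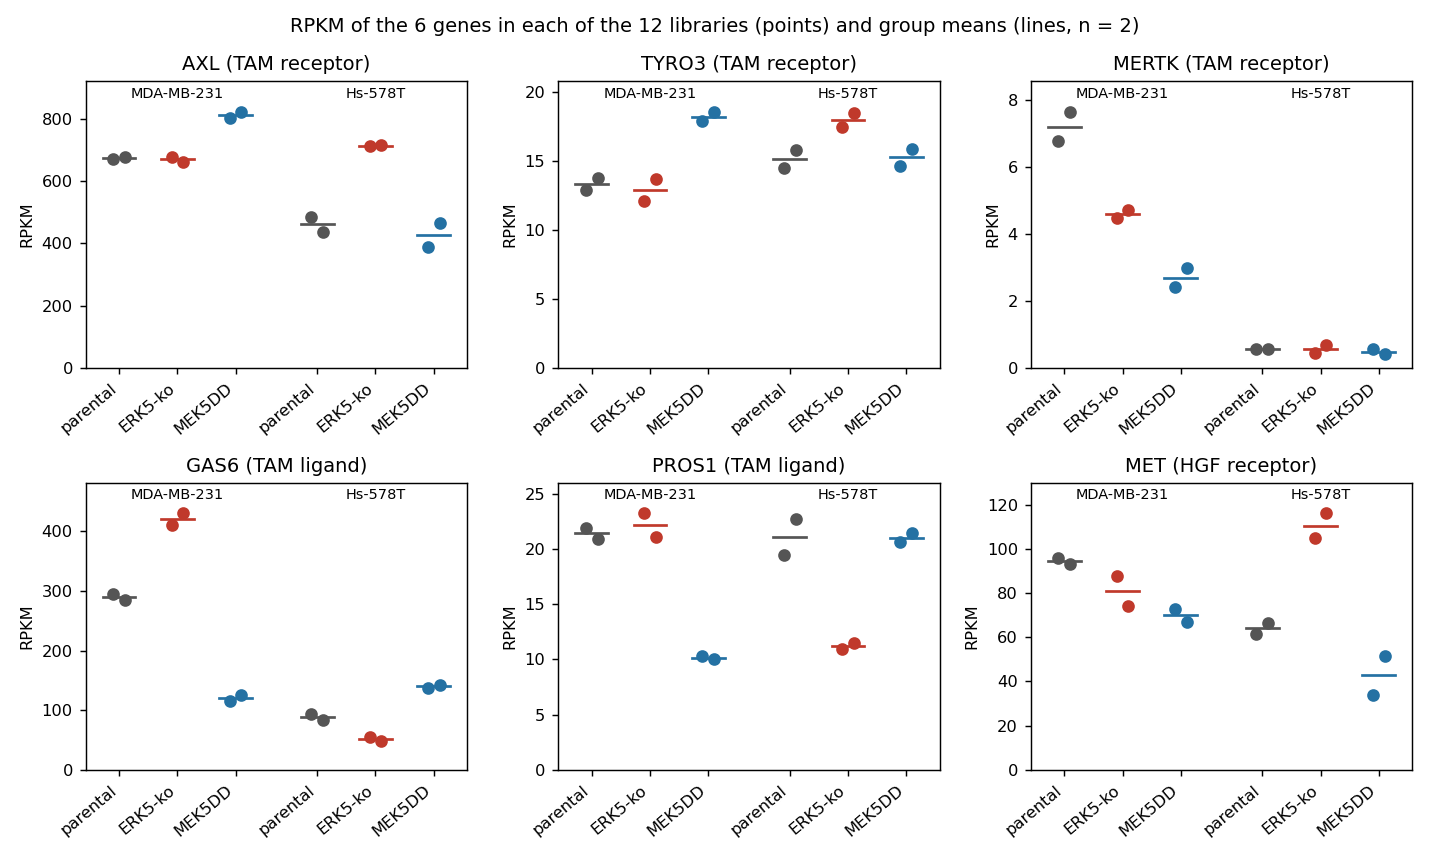
RPKM (linear axis from 0, scaled for each gene) of the 6 genes in each of the 12 libraries, with points for libraries and lines for means of 2. AXL sits between 388 and 822 RPKM everywhere, GAS6 is highest in MDA-MB-231-ERK5-ko (411 and 430) and lowest in Hs-578T-ERK5-ko (54.4 and 47.4), and MERTK is below 1 RPKM in all Hs-578T libraries.

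AXL (ENSG00000167601.11, GRCh38 chr19:41219203-41261766, plus strand) was the dominant TAM receptor RNA in both lines and rose in Hs-578T-ERK5-ko. In MDA-MB-231 it was at 671 and 677 RPKM in parental cells, 677 and 661 in ERK5-ko and 803 and 822 in MEK5DD. The Hs-578T levels were 486 and 435 RPKM in parental cells, 711 and 716 in ERK5-ko and 388 and 464 in MEK5DD. The Hs-578T-ERK5-ko libraries stood above every other Hs-578T library and above all MDA-MB-231 parental and ERK5-ko libraries. AXL was 1.55-fold higher in Hs-578T-ERK5-ko than in parental cells (log2 fold change 0.63, SE 0.106, adjusted p = 0.000773, n = 2 against 2), more than 91.7% of tested genes. In MDA-MB-231-ERK5-ko the log2 fold change was -0.01 (95% interval -0.24 to 0.22, adjusted p = 0.979), and the groups overlapped. In MDA-MB-231-MEK5DD both libraries were above both parental ones, with a log2 fold change of 0.27 (95% interval 0.04 to 0.50) that missed the threshold (adjusted p = 0.0624) but passed in 6 of 20 alternative fits. Its adjusted p was 0.00563 with only the MDA-MB-231 libraries fitted and up to 0.308 in other fits. In Hs-578T-MEK5DD the log2 fold change was -0.12 (95% interval -0.35 to 0.12, adjusted p = 0.474), with overlapping groups. The order of the 6 groups from the highest was thus MDA-MB-231-MEK5DD, Hs-578T-ERK5-ko, the overlapping MDA-MB-231 parental and ERK5-ko groups, and the overlapping Hs-578T parental and MEK5DD groups. In every library AXL lay above 98.0% or more of the tested genes. An antisense gene shares 67 exon bases with AXL and stayed at or below 0.293 RPKM.

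TYRO3 (ENSG00000092445.11, chr15:41557675-41583586, plus strand), the TAM receptor best known from the nervous system, varied least of the receptors. In MDA-MB-231 it was at 12.9 and 13.8 RPKM in parental cells, 12.1 and 13.7 in ERK5-ko and 17.9 and 18.6 in MEK5DD. Hs-578T had 14.5 and 15.8 RPKM in parental cells, 17.5 and 18.5 in ERK5-ko and 14.7 and 15.9 in MEK5DD. One engineered group of each line was thus above its parental group without overlap, and the other overlapped it. TYRO3 rose in MDA-MB-231-MEK5DD (log2 fold change 0.44, SE 0.0997, adjusted p = 0.00424). Its difference in Hs-578T-ERK5-ko, 0.24 (95% interval 0.02 to 0.46), did not pass (adjusted p = 0.0767), though it did in 1 of 20 alternative fits. In the remaining comparisons it was -0.05 (adjusted p = 0.798) in MDA-MB-231-ERK5-ko and 0.01 (adjusted p = 0.954) in Hs-578T-MEK5DD.

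MERTK (ENSG00000153208.16, chr2:111898479-112029561, plus strand), which mediates the uptake of apoptotic cells by macrophages, was measurable mainly in MDA-MB-231 and was lower in both engineered groups of that line. It was at 6.76 and 7.64 RPKM in MDA-MB-231 parental cells, 4.48 and 4.7 in ERK5-ko and 2.41 and 2.97 in MEK5DD. These 3 groups did not overlap. MERTK fell by 1.27 on the log2 scale in MEK5DD (SE 0.141, adjusted p = 2.45e-05), to 0.413 of parental. It fell by 0.60 in ERK5-ko (SE 0.141, adjusted p = 0.014), a call that was lost with a pseudocount of 0.1 (adjusted p = 0.0551) and without MDA-MB-231 parental replicate 2 (0.12), ERK5-ko replicate 1 (0.0852) or ERK5-ko replicate 2 (0.061). Hs-578T had only 0.578 and 0.563 RPKM in parental cells, 0.444 and 0.69 in ERK5-ko and 0.557 and 0.417 in MEK5DD, which is 22 to 43 reads a library. The Hs-578T parental and ERK5-ko groups overlapped and MEK5DD lay just below parental. Differences of -0.01 (95% interval -0.32 to 0.30) and -0.12 (-0.43 to 0.19), with adjusted p = 0.951 and 0.585, were not detectable at this depth.
MERTK is also a macrophage gene, and of the 6 macrophage and leukocyte markers listed, PTPRC, AIF1 and CD163 were at 3 reads or fewer in all MDA-MB-231 groups. The other 3 were tested and did not move together. CD14 (mean 1.99 RPKM in parental cells and 0.763 in MEK5DD) and CSF1R (5.83 and 3.47) passed lower in MEK5DD, as MERTK did, and CSF1R also in ERK5-ko (2.84), while CD68, which tumor cells also use, passed higher in MEK5DD (65.8 and 107). The summed RPKM of the 6 markers, nearly all of it CD68, was 70.3 to 77.0 in MDA-MB-231 parental, 56.9 to 69.2 in ERK5-ko and 110 to 113 in MEK5DD. The part of these markers in the MERTK result was not tested. In bulk RNA, fewer cells of a type and less RNA per cell cannot be told apart.

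AXL made up 96.2% to 97.6% of the summed RPKM of the 3 receptors in every library. TYRO3 held 1.74% to 3.63% and MERTK 0.061% to 1.09%, with no overlap between the receptors in any library. The length behind RPKM matters for the minor receptors, since the authors' lengths are averages over transcripts. When reads were divided instead by the merged exon length, an alternative chosen after seeing the data, AXL held 98.0% to 99.0%. MERTK then exceeded TYRO3 in MDA-MB-231 parental cells, with 1.1% and 1.23% against 0.721% and 0.76%. It also did so by less in MDA-MB-231-ERK5-ko, with 0.725% and 0.78% against 0.671% and 0.778%. The order of these minor receptors thus depends on the length used.

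GAS6 (ENSG00000183087.14, chr13:113820549-113864067, minus strand), the ligand of all 3 TAM receptors, passed in all 4 comparisons with parental cells, in opposite directions in the lines. In MDA-MB-231 it was at 295 and 285 RPKM in parental cells, 411 and 430 in ERK5-ko and 116 and 125 in MEK5DD. The Hs-578T values were 93.9 and 84.1 RPKM in parental cells, 54.4 and 47.4 in ERK5-ko and 138 and 142 in MEK5DD. The 6 groups did not overlap. In MDA-MB-231 GAS6 rose 1.45-fold in ERK5-ko (log2 fold change 0.53, SE 0.0948, adjusted p = 0.00307) and fell to 0.416 of parental in MEK5DD (-1.27, adjusted p = 1.04e-06). In Hs-578T it fell to 0.574 of parental in ERK5-ko (-0.80, adjusted p = 7.09e-05) and rose 1.57-fold in MEK5DD (0.65, adjusted p = 0.000717). The rise in MDA-MB-231-ERK5-ko exceeded that of 96.4% of tested genes and the rise in Hs-578T-MEK5DD that of 97.6%. The antisense gene GAS6-AS1 shares 421 exon bases with it and stayed at or below 0.176 RPKM.

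PROS1 (ENSG00000184500.14, chr3:93873033-93974066, minus strand), an anticoagulant cofactor and ligand of TYRO3 and MERTK, had nearly the same level in 4 groups and a lower one in 2. In MDA-MB-231 it was at 21.9 and 20.9 RPKM in parental cells, 23.2 and 21.1 in ERK5-ko and 10.3 and 9.99 in MEK5DD. Hs-578T had 19.4 and 22.7 RPKM in parental cells, 10.9 and 11.5 in ERK5-ko and 20.6 and 21.4 in MEK5DD. The 4 higher groups overlapped, and both lower groups lay well below them. PROS1 fell by 1.04 on the log2 scale in MDA-MB-231-MEK5DD (SE 0.101, adjusted p = 8.46e-06) and by 0.88 in Hs-578T-ERK5-ko (SE 0.101, adjusted p = 5.82e-05). In MDA-MB-231-ERK5-ko it differed by 0.05 (95% interval -0.18 to 0.27, adjusted p = 0.821) and in Hs-578T-MEK5DD by 0.00 (-0.22 to 0.22, adjusted p = 1). Its pseudogene PROS2P held at most 1 read in any library.
GAS6 and PROS1 were thus both lower in MDA-MB-231-MEK5DD and in Hs-578T-ERK5-ko. Of the fibroblast markers PDGFRB, DCN and LUM, PDGFRB and LUM passed lower in MDA-MB-231-MEK5DD, where DCN was at 4 reads or fewer, and DCN and LUM passed lower in Hs-578T-ERK5-ko. The summed RPKM of the 3 markers was 15.0 to 15.4 in MDA-MB-231 parental against 2.01 to 2.15 in MEK5DD, and 1160 to 1280 in Hs-578T parental against 520 to 567 in ERK5-ko. The epithelial markers EPCAM, KRT8 and KRT18 summed to 1050 to 1150 RPKM in MDA-MB-231 parental against 931 to 965 in MEK5DD, with EPCAM passing lower. In MDA-MB-231-ERK5-ko, where GAS6 was higher, they summed to 1840 to 1860 RPKM and all 3 passed higher. In Hs-578T they summed to 188 to 264 RPKM in parental cells and 576 to 624 in ERK5-ko. There KRT18 passed higher (mean 571 against 177 RPKM), KRT8 passed lower (28.8 against 48.8) and EPCAM was at 3 reads or fewer. In Hs-578T-MEK5DD, where GAS6 was higher, they summed to 228 to 253 RPKM and only KRT8 passed, higher. Leukocyte markers summed to 43.5 to 47.8 RPKM in Hs-578T parental and 25.9 to 28.8 in ERK5-ko, with all 3 tested markers passing lower and AIF1 at 3 reads or fewer. The part of these shifts in the ligand results was not tested.

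Ratios within a library do not depend on how libraries were scaled, but their size depends on the gene lengths used. The RPKM of AXL over that of GAS6 was 2.28 and 2.37 in MDA-MB-231 parental cells, 1.65 and 1.54 in ERK5-ko and 6.92 and 6.59 in MEK5DD. The Hs-578T ratio was 5.18 in both parental libraries, 13.1 and 15.1 in ERK5-ko and 2.81 and 3.26 in MEK5DD. The groups of a line did not overlap, and the order of the groups was reversed between the lines. With merged exon lengths AXL over GAS6 ran from 2.2 to 21.6 over all libraries, instead of 1.54 to 15.1, in the same order. GAS6 exceeded PROS1 in every library, by 3.7 to 20.4 times.

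**Figure D2:**
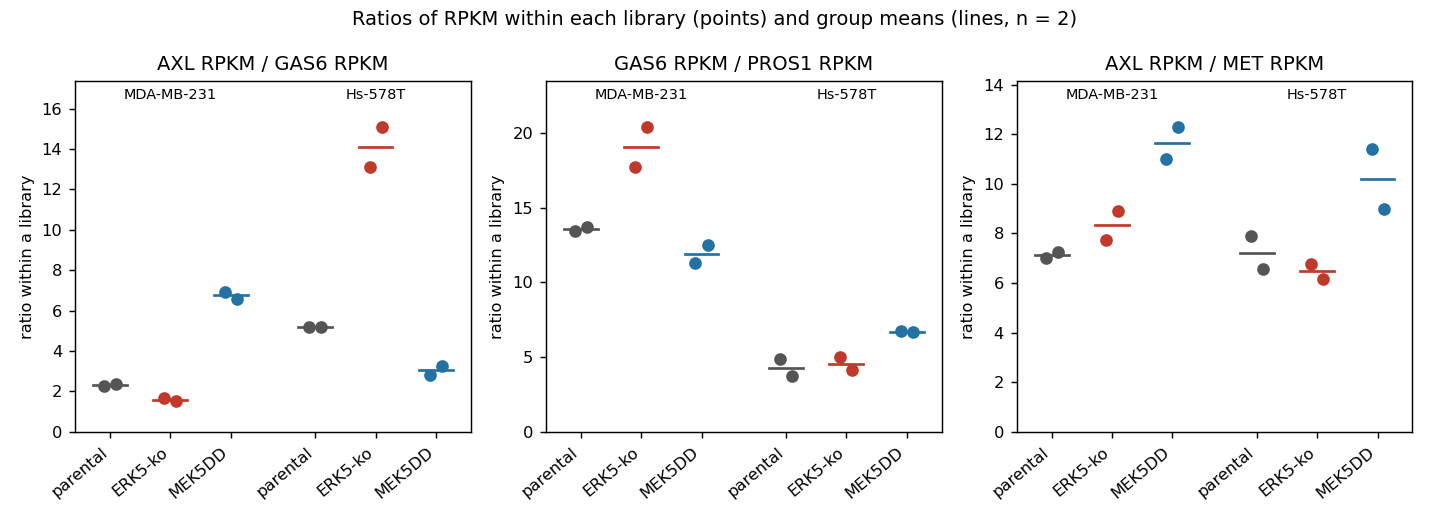
Ratio of RPKM within each library (linear axes from 0) for AXL over GAS6, GAS6 over PROS1 and AXL over MET, with points for libraries and lines for means of 2. AXL over GAS6 is lowest in MDA-MB-231-ERK5-ko (1.65 and 1.54) and highest in Hs-578T-ERK5-ko (13.1 and 15.1).

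MET (ENSG00000105976.14, chr7:116672390-116798386, plus strand) rose in Hs-578T-ERK5-ko and was lower in both MEK5DD groups, though not firmly. In MDA-MB-231 it was at 96.0 and 93.3 RPKM in parental cells, 87.7 and 74.1 in ERK5-ko and 72.9 and 66.9 in MEK5DD. In Hs-578T it was at 61.5 and 66.5 RPKM in parental cells, 105 and 116 in ERK5-ko and 34.0 and 51.7 in MEK5DD. No groups overlapped, but the Hs-578T-MEK5DD libraries differed from each other more than any other pair (SD 12.5 RPKM). MET was 1.72-fold higher in Hs-578T-ERK5-ko (log2 fold change 0.78, SE 0.161, adjusted p = 0.00272). It fell by 0.60 on the log2 scale in Hs-578T-MEK5DD (adjusted p = 0.0195). Without Hs-578T-MEK5DD replicate 1 this was -0.30 (adjusted p = 0.0905), and without Hs-578T parental replicate 2 it was -0.55 (0.0814), and with only the Hs-578T libraries fitted its adjusted p was 0.13. In MDA-MB-231-MEK5DD it was -0.44 (adjusted p = 0.0486). That call was lost in 8 of 12 fits with a library left out, namely any MDA-MB-231 library or either Hs-578T-ERK5-ko library, with adjusted p up to 0.214, and it held in 9 of 20 alternative fits. In MDA-MB-231-ERK5-ko the difference was -0.23 (95% interval -0.58 to 0.12, adjusted p = 0.374). HGF, the ligand of MET, had 0 reads in all 6 MDA-MB-231 libraries, which allows up to 3 reads a library. It had 6 and 5 reads in Hs-578T parental cells, 2 and 4 in ERK5-ko and 0 and 2 in MEK5DD, and was too low to test.

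**Figure D3:**
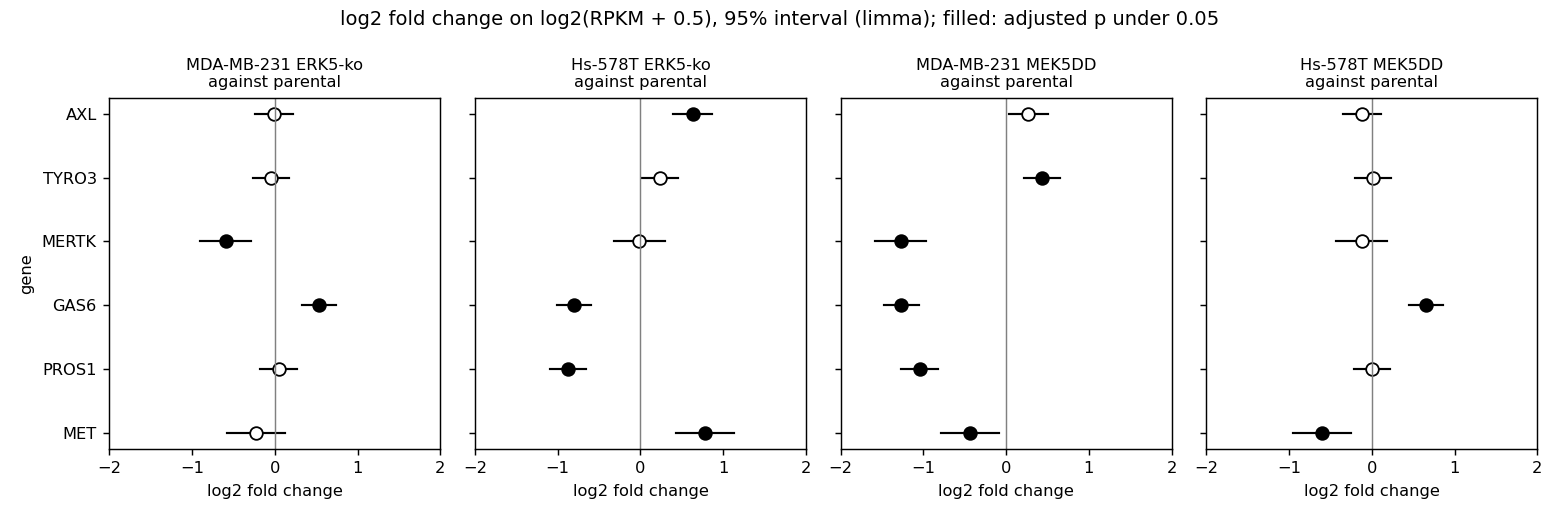
log2 fold change of the 6 genes against parental cells of the same line (x axis, log2(RPKM + 0.5) scale), with bars for limma's 95% interval and filled points for adjusted p under 0.05. GAS6 is filled in all 4 panels, at 0.53, -0.80, -1.27 and 0.65 from left to right.

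The difference between the lines was tested itself, as the change in MDA-MB-231 minus that in Hs-578T. For ERK5-ko 5 of 6 genes passed, where 39.8% of tested genes did in either direction. GAS6 differed by 1.33 (adjusted p = 2.62e-05), PROS1 by 0.92 (0.000463), AXL by -0.64 (0.00595), MET by -1.01 (0.0048) and MERTK by -0.58 (0.0375). The MERTK difference was lost in 7 of 12 fits with a library left out, namely any MDA-MB-231 parental, MDA-MB-231-ERK5-ko or Hs-578T parental library or Hs-578T-ERK5-ko replicate 2 (adjusted p up to 0.152), passed in 8 of 20 alternative fits in all, and is not firm. For MEK5DD 4 of 6 passed, where 39.6% of tested genes did. GAS6 differed by -1.92 (adjusted p = 1.32e-06), MERTK by -1.15 (0.000906), PROS1 by -1.05 (0.000174) and TYRO3 by 0.43 (0.0319). The TYRO3 difference was lost in 6 of 12 such fits, without any MDA-MB-231 parental or MEK5DD library, Hs-578T parental replicate 2 or Hs-578T-MEK5DD replicate 1 (adjusted p up to 0.119). The MEK5DD difference of MET, 0.17 (95% interval -0.33 to 0.67), did not pass (adjusted p = 0.592). It was -0.13 (0.507) without Hs-578T-MEK5DD replicate 1 and 0.47 (0.0273) without replicate 2, so that these libraries set its value.

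ERK5-ko and MEK5DD cells of a line, which share no library, were also compared directly. In MDA-MB-231 5 of 6 genes passed (55% of all tested), with GAS6 higher in ERK5-ko by 1.80, PROS1 by 1.09 and MERTK by 0.68, and TYRO3 lower, at -0.49. AXL differed by -0.28 (adjusted p = 0.042), a call lost without any MDA-MB-231 library or either Hs-578T-ERK5-ko library (8 of 12 fits, adjusted p up to 0.163). In Hs-578T 4 of 6 passed (50% of all tested). MET was higher in ERK5-ko by 1.39 and AXL by 0.75, while GAS6 and PROS1 were lower, at -1.46 and -0.88. GAS6 and PROS1 therefore differed between the engineered groups in both lines with opposite signs. In Hs-578T the share of passing genes that were higher in ERK5-ko went from 61.5% to 48.5% with median-ratio scaling.

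Before any engineering, 4 of the 6 genes were higher in MDA-MB-231 than in Hs-578T, where 46% of all tested genes passed higher and 31.3% lower. MERTK differed most (log2 fold change 2.84, adjusted p = 4.05e-09), followed by GAS6 (1.70, adjusted p = 1.2e-08), MET (0.56, adjusted p = 0.00728) and AXL (0.55, adjusted p = 0.00053). TYRO3 (-0.18, adjusted p = 0.124) and PROS1 (0.03, adjusted p = 0.8) did not pass. Scaling mattered here, since median-ratio scaling shifted the median of all genes by -0.21 and left MET at 0.33 (adjusted p = 0.0659), with TYRO3 then lower in MDA-MB-231 (-0.40, adjusted p = 0.00253). The same scaling moved the share of passing genes that were higher from 59.5% to 48.7%.

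The wider pathway was followed in 7 lists of 43 further genes, of which 39 were tested. In MDA-MB-231-ERK5-ko 5 passed higher and 2 lower (6.91% and 10.4% of all tested genes). With a library left out these counts ran from 1 to 9 and from 1 to 4, with 1 higher gene without MDA-MB-231 parental replicate 2 and 9 without Hs-578T-MEK5DD replicate 1. In Hs-578T-ERK5-ko 8 passed higher and 8 lower, a share near that of all tested genes (19.7% each). The 8 higher genes fell to 5 without Hs-578T parental replicate 1, 4 without Hs-578T-ERK5-ko replicate 2 and 3 with only the Hs-578T libraries fitted. In MDA-MB-231-MEK5DD 3 passed higher and 18 lower (17.5% and 23.8% of all tested genes), with a median log2 fold change of -0.38 against -0.01 over all tested genes. In Hs-578T-MEK5DD 3 passed higher and 4 lower (6.44% and 17% of all tested genes), and none of the lower calls was made with only the Hs-578T libraries fitted. The lower count was 1 without Hs-578T parental replicate 2 or MEK5DD replicate 1 and 10 without MEK5DD replicate 2. The medians of the other 3 comparisons lay between -0.06 and 0.04. The counts of single lists below rest on few genes and read against the same shares.

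The HGF axis list holds HGF, proteases that activate HGF-family ligands and their inhibitors, and also MST1 and its receptor RON (MST1R). In each comparison with parental cells 3 to 5 of its 6 tested genes passed. In MDA-MB-231-MEK5DD 5 of its 6 tested genes fell, and in Hs-578T-MEK5DD 3 of 6 rose. SPINT1, an inhibitor of HGF-activating proteases, was at 4.45 and 5.03 RPKM in MDA-MB-231 parental cells and 1.24 and 1.51 in MEK5DD (log2 fold change -1.49, adjusted p = 1.47e-05). SPINT1 in Hs-578T was at 1.9 and 1.89 RPKM in parental cells, 0.39 and 0.563 in ERK5-ko (-1.30, adjusted p = 7.04e-05) and 4.42 and 3.12 in MEK5DD (0.82, adjusted p = 0.00344). Its direction thus differed between the MEK5DD groups. PLAU, the urokinase that activates plasminogen, fell in MDA-MB-231-ERK5-ko from 1120 and 1210 RPKM to 459 and 466 (-1.33, adjusted p = 4.03e-06). It rose in Hs-578T-ERK5-ko (0.58, adjusted p = 0.000416) and Hs-578T-MEK5DD (0.55, adjusted p = 0.00136). In MDA-MB-231-MEK5DD it fell by 0.38 (adjusted p = 0.00545), which missed the threshold without MDA-MB-231 parental replicate 2 (0.0655) or MEK5DD replicate 1 (0.0505). ST14, the membrane protease matriptase, fell by 1.19 in MDA-MB-231-MEK5DD (adjusted p = 7.69e-06). MST1, the ligand of RON, fell by 1.04 in MDA-MB-231-MEK5DD (adjusted p = 0.000251). In Hs-578T-MEK5DD it was higher by 0.70 (adjusted p = 0.00871), or 0.46 (0.0523) without MEK5DD replicate 1. With only the Hs-578T libraries fitted, SPINT1 and MST1 missed the threshold in MEK5DD (adjusted p = 0.0547 and 0.0735).

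Among adaptors and effectors, SRC, a cytoplasmic tyrosine kinase, had the largest change of the 39 genes on the log2(RPKM + 0.5) scale. It was at 29.6 and 28.9 RPKM in MDA-MB-231 parental cells, 31.1 and 32.9 in ERK5-ko and 2.89 and 3.13 in MEK5DD, a log2 fold change of -3.08 in the last (adjusted p = 3.71e-09). The ranking depends on the scale, since over the alternative fits of this comparison the low gene TUB reached -3.89 and SRC -3.27. In Hs-578T SRC stayed between 18.5 and 30.5 RPKM. PIK3R1, the regulatory subunit of PI3-kinase, rose by 1.05 in MDA-MB-231-MEK5DD (adjusted p = 0.000699). CBL, a ubiquitin ligase that down-regulates receptor kinases, was higher by 0.80 in Hs-578T-ERK5-ko (adjusted p = 0.017) and by 0.42 (0.15) without Hs-578T parental replicate 1. PTPN11, the phosphatase SHP2, was higher by 0.74 there (adjusted p = 0.0119) and by 0.51 (0.0974) without that library. Both also missed the threshold without Hs-578T-ERK5-ko replicate 2, with adjusted p = 0.0921 and 0.12, and CBL without replicate 1 (0.0703). In all, 5 of 14 tested adaptors passed in Hs-578T-ERK5-ko, 5 in MDA-MB-231-MEK5DD, 1 in Hs-578T-MEK5DD and 0 in MDA-MB-231-ERK5-ko, where limma gave 3 at an unadjusted p under 0.05 and limma voom 0. With only the Hs-578T libraries fitted, CBL and PTPN11 missed the threshold too (adjusted p = 0.105 and 0.0844).

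At the membrane, CD44, a co-receptor of MET, rose in Hs-578T-ERK5-ko from 969 and 1050 RPKM to 1580 and 1700 (log2 fold change 0.70, adjusted p = 0.000275). It also rose in MDA-MB-231-MEK5DD, from 862 and 914 to 1340 and 1280 RPKM (0.56, adjusted p = 0.00092). PLXNB1, a semaphorin receptor that pairs with MET, rose in MDA-MB-231-ERK5-ko (0.67, adjusted p = 0.00434). Of the genes that keep or expose phosphatidylserine, 4 were tested here and all 4 fell in MDA-MB-231-MEK5DD, and the flippase ATP11A went from 30.5 and 27.9 to 12.9 and 13.3 RPKM (-1.12, adjusted p = 8.53e-06). LGALS3, a galectin reported as a further TAM ligand, fell in Hs-578T-ERK5-ko from 246 and 199 to 93.9 and 81.8 RPKM (-1.33, adjusted p = 0.000355). TUB, another such ligand, fell in MDA-MB-231-MEK5DD from 1.24 and 1.63 to 0.0982 and 0.0852 RPKM (-1.70, adjusted p = 1.32e-05). Of the 4 genes of vitamin K-dependent carboxylation and processing, FURIN and VKORC1L1 passed lower in MDA-MB-231-MEK5DD, and FURIN higher and VKORC1 lower in Hs-578T-ERK5-ko. The FURIN and VKORC1 calls in Hs-578T-ERK5-ko were lost with only the Hs-578T libraries (adjusted p = 0.063 and 0.142), and VKORC1 also without Hs-578T parental replicate 1 (0.202) or ERK5-ko replicate 2 (0.24). The sheddase ADAM10, which cleaves receptors from the surface, fell by 0.96 in MDA-MB-231-MEK5DD (adjusted p = 0.000267). Its differences in Hs-578T-ERK5-ko (0.43, adjusted p = 0.0352) and Hs-578T-MEK5DD (-0.46, adjusted p = 0.0404) were not firm, since each was lost with only the Hs-578T libraries (0.13 and 0.166), and the first without Hs-578T parental replicate 1 or any MDA-MB-231 parental, MDA-MB-231-MEK5DD or Hs-578T-ERK5-ko library, the second without Hs-578T parental replicate 2, Hs-578T-MEK5DD replicate 1 or any library of those same 3 groups. The second was also lost with median-ratio scaling (0.0763). ADAM17 passed lower in Hs-578T-ERK5-ko (-0.46, adjusted p = 0.00523) and Hs-578T-MEK5DD (-0.52, adjusted p = 0.00491), and missed the threshold in both with only the Hs-578T libraries (0.0546 and 0.0716).

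**Figure D4:**
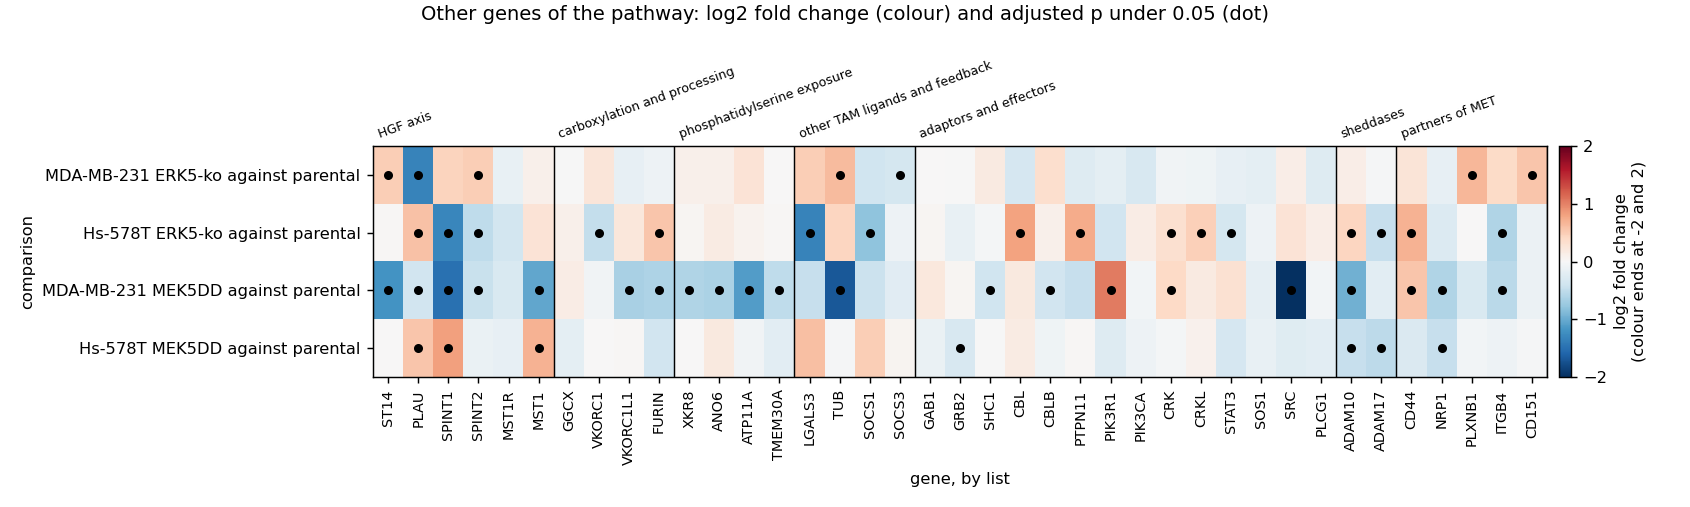
log2 fold change (colour, ending at -2 and 2) of the 39 tested pathway genes outside the 6, grouped by list, in the 4 comparisons with parental cells, with a dot for adjusted p under 0.05. The MDA-MB-231-MEK5DD row holds 18 dots on lower genes, and SRC at -3.08 lies beyond the colour range.

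The identity of the lines was read from their defining markers. ESR1 was at 3 reads or fewer in 4 of 6 groups and PGR in all MDA-MB-231 groups, and neither reached 0.5 RPKM in any group. ERBB2, the other receptor listed to be low, was detected in every group. Its means ran from 31.5 RPKM in Hs-578T-MEK5DD to 55.9 in MDA-MB-231-ERK5-ko, and it passed lower in MEK5DD of both lines. VIM and CAV1 summed to at least 2310 RPKM in every library. EPCAM was at 3 reads or fewer in all Hs-578T groups. Of 4 endothelial markers CDH5 was at 3 reads or fewer in all groups and VWF at 7 or fewer. PECAM1 was detected in Hs-578T (mean 5.55 RPKM in parental cells, 6.39 in ERK5-ko and 2.89 in MEK5DD) and passed lower in MEK5DD. KDR was detected in MDA-MB-231 (1.58 in parental cells, 0.796 in ERK5-ko and 2.34 in MEK5DD), passing lower in ERK5-ko and higher in MEK5DD. In MDA-MB-231 PECAM1 (mean 0.768 RPKM in parental cells) passed lower in both engineered groups.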

How the data were processed

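RNA from 12 cultures was sequenced with a stranded poly(A) kit. The deposited table holds RPKM values, which per the labels' processing notes came from Trimmomatic 0.32, TopHat2 2.1.1 and GRCh38. DESeq2 1.12.4 is also named by the submitters; the counting tool and annotation are not given in the sources used here. For 26666 of 32152 genes the mean length of the annotated transcripts gave whole reads in all libraries (tolerance 0.001). For the other 5486, PROS1 among them, the length was solved from the RPKM values themselves. Whole reads are no check of the length in those genes. Depth was 20248162 to 27791195 reads a library.

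Protein-coding genes with 0.5 RPKM or more in 2 or more libraries (13737) entered a test on log2(RPKM + 0.5) with limma 3.58.1 (trend, R 4.3.3), with 6 group means over all 12 libraries and 6 residual degrees of freedom. Adjusted p is Benjamini-Hochberg within a comparison. The procedure was also run on simulated data with known changes, drawn with the same spread setting in all groups. Real replicate libraries differed in spread, with a chi-square of their counts per degree of freedom of 2.81 in MDA-MB-231-MEK5DD and 41.9 in Hs-578T-MEK5DD. That run does not cover such a difference. Alternatives were pseudocounts of 0.1 and 1, no filter, median-ratio scaling, quantile normalization, fewer libraries in the fit, a replicate block, each library left out, and limma voom on the recovered reads. Those for the pathway lists were added after seeing the data.

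Named pathway genes are HGF and those past adjusted p 0.05 and a fold above 1.5 or below 0.5 in at least 1 comparison with parental, up to 4 a list by size. Other pathway genes named beside a list count were chosen after their values were seen. One gene of the pathway lists is not reported here and is in no list count. The members and lists were chosen with earlier results of these data known. Promoter windows come from RefSeq (GRCh38.p14), matched by symbol for all 6 genes. Annotated overlaps are from GENCODE 29.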

Additional observations from a re-analysis of the deposited data

Results flagged for a closer look

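The change of several genes in an engineered group differed between the lines by a test of the difference itself, given as MDA-MB-231 minus Hs-578T on the log2 scale. Under ERK5-ko these were AXL (-0.64, adjusted p = 0.00595), MERTK (-0.58, adjusted p = 0.0375), GAS6 (1.33, adjusted p = 2.62e-05), PROS1 (0.92, adjusted p = 0.000463) and MET (-1.01, adjusted p = 0.0048). Under MEK5DD these were MERTK (-1.15, adjusted p = 0.000906), TYRO3 (0.43, adjusted p = 0.0319), GAS6 (-1.92, adjusted p = 1.32e-06) and PROS1 (-1.05, adjusted p = 0.000174). The MERTK difference under ERK5-ko and the TYRO3 difference under MEK5DD are not firm, since each was lost in several of the fits given above. The change of GAS6 had opposite signs in the lines in both engineered groups, and in each case both libraries lay on that side of both parental libraries. MAP2K5 RNA differed between the MEK5DD lines as given above, and its part in the MEK5DD differences was not tested.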

How the results depend on the processing

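Across the 6 genes and 9 comparisons, 403 of the fits with another setting and 595 of those with a library left out kept direction and side of the threshold, 14 and 34 lost a call, 9 and 6 gained one, and 6 and 13 changed sign, none of them a called value. The count of members passing in MDA-MB-231-ERK5-ko was 1 with a pseudocount of 0.1 and 1 to 2 with a library left out (1 without MDA-MB-231 parental replicate 2, ERK5-ko replicate 1 or ERK5-ko replicate 2, where MERTK was lost). In Hs-578T-MEK5DD it was 1 with only the libraries of the line and 1 to 2 with a library left out (1 without Hs-578T parental replicate 2 or MEK5DD replicate 1, where MET was lost). Sign changes with median-ratio scaling were AXL (0.055) and TYRO3 (0.0131) in MDA-MB-231-ERK5-ko and PROS1 (-0.2003) between the parental groups. With quantile normalization they were TYRO3 (0.0086) in MDA-MB-231-ERK5-ko, MERTK (0.0177) in Hs-578T-ERK5-ko and PROS1 (-0.2046) between the parental groups. With a library left out, values crossed 0 for AXL (-0.0295 to 0.0068), TYRO3 (-0.1376 to 0.0361) and PROS1 (-0.0229 to 0.1149) in MDA-MB-231-ERK5-ko, MERTK in Hs-578T-ERK5-ko (-0.1808 to 0.1526), AXL (-0.2459 to 0.013), TYRO3 (-0.0528 to 0.0755) and PROS1 (-0.111 to 0.1139) in Hs-578T-MEK5DD, MERTK between the Hs-578T engineered groups (-0.0596 to 0.2738), PROS1 between the parental groups (-0.0832 to 0.1417) and MET in the MEK5DD difference between lines (-0.1312 to 0.467). The causes were not tested. Of the other pathway genes, 18 passed lower in MDA-MB-231-MEK5DD, with a range of 14 to 23 over the alternatives, while the 4 lower genes in Hs-578T-MEK5DD ranged from 0 to 10.

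The labels tie same-numbered libraries by their number and by passage order, since replicate 1 was the earlier passage in every group. They name no shared day or batch. Deviations of such libraries from their group means correlated at 0.107 to 0.541 in 6 of 6 pairings of groups of the same line. This is a hint of a shared replicate effect, which cannot be told apart from passage order. With the replicate block the members passing in Hs-578T-ERK5-ko went from 4 to 5 (TYRO3, 0.24, adjusted p = 0.0322), AXL passed in MDA-MB-231-MEK5DD (adjusted p = 0.0497) and in the MEK5DD difference between lines (0.0484), and TYRO3 between the Hs-578T engineered groups (0.0333). All genes passing in MDA-MB-231-ERK5-ko numbered 2379 against 1037, 1012, 1258 and 1200 without each of its 4 libraries and 4065 with only the MDA-MB-231 libraries, and in Hs-578T-MEK5DD 3213 against 900 with only the Hs-578T libraries. Depth limits MERTK in Hs-578T and HGF in both lines.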

Other observations

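The genes whose levels followed each of the 6 most closely over the 12 libraries were, by Pearson's r on the log2 scale, RPA1 (0.981) and NUP88 (0.976) for AXL, MT1A (0.992) and CFP (0.992) for MERTK, and ZYX (0.95) and CCDC86 (0.949) for TYRO3. For the ligands they were LTA4H (0.99) and ESRRA (0.99) for GAS6 and SNX9 (0.971) and RALB (0.971) for PROS1, and for MET they were WDFY1 (0.977) and AC006486.9 (0.974). These are the highest of 13737 genes over 12 libraries that form 6 groups, share one normalization, and are given as a description without a test.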
